A study of Caenorhabditis elegans with 9 samples.

Results

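RNA of whole adult Caenorhabditis elegans was compared between worms exposed to either of 2 pyridine compounds and worms given water. The compound side held 6 of the 9 libraries, 3 from worms on nicotinic acid and 3 from worms on 1-methylnicotinamide (MNA), and the other side held the 3 water libraries. The compound side was the mean of the nicotinic acid mean and the MNA mean, so each compound counted equally, and the question was which transcripts shifted in common. Worms of every group were harvested 48 hours after the fourth larval stage from NGM agar plates poured from 1 batch. The MNA dose was 1 µM, whereas the labels give the nicotinic acid dose as 1 mM in one field and 1 nM in another, so the doses differ under either reading. The labels used here name no strain or genotype, and they do not say that the 3 replicates of a group were separate cultures. The p-values therefore measure the spread between these samples, which may be technical.

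Nicotinic acid is a vitamin from which cells build the redox cofactor NAD, and MNA is made when nicotinamide, released as NAD is consumed, receives a methyl group. In C. elegans the methyl transfer is carried out by the enzyme ANMT-1, and the aldehyde oxidase GAD-3 breaks MNA down with release of hydrogen peroxide. A worm harvested as a young adult carries developing embryos in its uterus, so that RNA of the whole animal includes transcripts of the mother and of her embryos. The cuticle, which covers the worm and is rebuilt at each moult, is made of collagens and cuticlins, and different members of these families are made at different stages.

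Library totals ran from 18501261 to 31247605 counts, so 3 counts in a library corresponded to 0.096 to 0.162 CPM, the unit of all levels below, in which counts are put on one scale for all libraries. After a filter on low counts 13985 genes were tested, which held 99.9% of all counts. The first principal component, with 39.5% of the variance, placed the 6 compound libraries between -25.01 and -0.92 and the 3 water libraries between 28.4 and 34.6. On the second, with 23.02%, nicotinic acid libraries lay between 16.23 and 29.01, MNA libraries between -24.98 and -4.50, and water libraries between -11.7 and 3.74. Nicotinic acid replicate 1 (-24.1 on the first component) and MNA replicate 3 (-4.50 on the second) stood apart from the others of their groups.

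**Figure D1:**
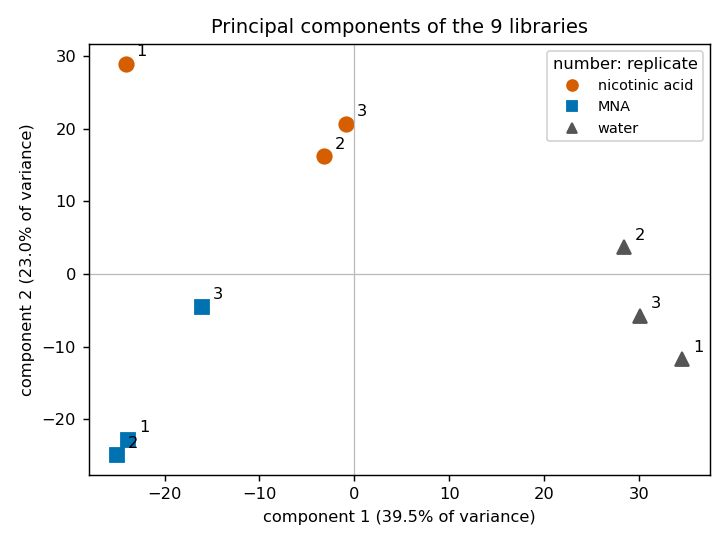
Scores of the 9 libraries on principal component 1 (horizontal, percent of variance in the axis label) and component 2 (vertical), computed over log2 CPM of the tested genes. The 6 compound libraries lie left of 0 on component 1 and the 3 water libraries between 28.4 and 34.6, while component 2 separates nicotinic acid (16.23 to 29.01) from MNA (-24.98 to -4.50).

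Against water, 423 genes rose and 684 fell under the compounds (edgeR quasi-likelihood test, Benjamini-Hochberg adjusted p below 0.05), which is 3.02% and 4.89% of the genes tested (7.92% in either direction). Cuticle collagens were numerous among the rises, with 42 of 113 numbered collagens and 10 of 21 body shape collagens higher, while 12 of 28 cuticlins and 6 of 22 zygotic embryo genes fell. Some genes belong to more than 1 of the lists used here. The median log2 change was 0.97 among the rises and -0.67 among the falls, against 0.00 over all genes tested, and 200 rises (1.43% of tested genes) and 192 falls (1.37%) were at least 2-fold. All 6 compound libraries lay above all 3 water libraries in 273 of the 423 rises (1.95% of tested genes), and below them in 606 of the 684 falls (4.33%). Without water replicate 1 these counts were 161 and 324. Over all tested genes such a separation occurred in 4.09% upward and 6.93% downward. Counts depended on single libraries: leaving out water replicate 1 gave 179 rises and 326 falls, water replicate 2 gave 224 rises, water replicate 3 gave 263 rises and 420 falls, and MNA replicates 1 and 2 gave 271 and 256 rises.

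How equally the compounds shared the rises and falls was read from a comparison of the compounds with each other, at doses that differed. The direct comparison of nicotinic acid with MNA passed the threshold for 198 genes, 1.42% of those tested, with 44 higher (0.315%) and 154 lower (1.1%) under nicotinic acid. Without MNA replicates 1, 2 and 3 in turn, those counts were 1 and 85, 1 and 75, and 160 and 258. The 44 became 20, 28 and 27 without nicotinic acid replicate 1, nicotinic acid replicate 2 or water replicate 3, and the 154 became 94 and 89 without nicotinic acid replicate 2 or 3. Among the falls 5 of 684 (0.731%) were unequal, and no fall had opposite signs under the compounds. Among the rises 78 of 423 (18.4%) were unequal, 67 of them with the higher level under MNA and 11 with the higher level under nicotinic acid, and 14 rises had opposite signs. The 95% interval of the difference between the compounds stayed within 2-fold for 578 of the 684 falls and 216 of the 423 rises. At least a 2-fold change under each compound was found for 152 falls and 116 rises. Because both single-compound values are taken against the same 3 water libraries, they are given here side by side and not as separate support.

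**Figure D2:**
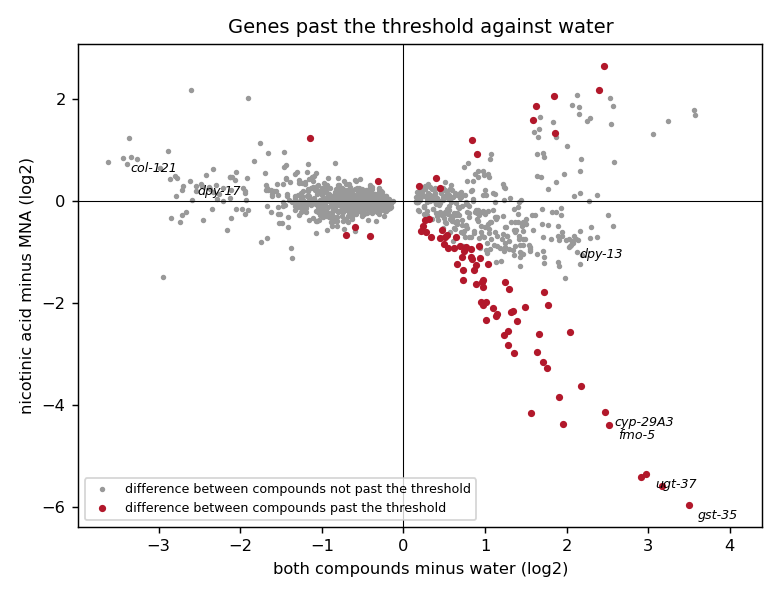
Log2 change of both compounds minus water (horizontal) against log2 difference of nicotinic acid minus MNA (vertical) for the 1107 genes past the threshold against water, 1 point per gene, with red points for the 83 genes whose difference between the compounds passed the threshold. Falls lie in a narrow band around 0 with 5 red points, while among the rises a tail of red points runs down to -5.96 for gst-35.

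Body shape collagens were among the largest rises shared by the compounds. These genes encode cuticle collagens whose mutants are short, long, squat or rolling. The dumpy gene dpy-13 (F30B5.1) had 42.4 (lowest), 81.1 (median) and 126 CPM (highest) in the 6 compound libraries, against 17.9, 14.5 and 24.2 CPM in the water libraries. Its log2 change was 2.07 (SE 0.27, edgeR adjusted p = 0.00699), with 1.66 under nicotinic acid and 2.49 under MNA. The dumpy gene dpy-4 (Y41E3.2) had a lowest, median and highest of 42.0, 79.3 and 120 CPM under the compounds, against 18.3, 12.76 and 21.8 CPM in water (log2 change 2.14, SE 0.27, edgeR adjusted p = 0.00641). In both genes every compound library lay above every water library, and the lowest compound value belonged to nicotinic acid replicate 3. The collagen lon-3 (ZK836.1), which limits body length, had 7.56, 13.2 and 14.5 CPM (lowest, median, highest) under the compounds, against 2.65, 2.79 and 4.12 CPM in water, again without overlap (log2 change 1.93, SE 0.22, edgeR adjusted p = 0.00101). Here and below, the rule that named the largest rises and falls admitted only genes without overlap, so their separation was a condition of choice. For dpy-5 (F27C1.8) and sqt-2 (C01B12.1) the log2 changes were 2.11 (SE 0.31) and 2.09 (SE 0.32), but leaving out water replicate 1 ended both calls (edgeR adjusted p = 0.0562 in each). The squat gene sqt-1 and the roller gene rol-8, chosen after their values were seen, had log2 changes of 2.02 (SE 0.27) and 1.99 (SE 0.23). Of the 21 body shape collagens tested, 10 rose and 2 fell, with a median log2 change of 1.93, and the 2 falls became 0 without water replicate 1 and 1 without water replicate 3.

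Among the numbered collagens a smaller share rose, with 42 of 113 tested members higher and 6 lower and a median log2 change of 0.96. The 42 became 20 without water replicate 1 and 26 without water replicate 3, and the 6 became 3 without water replicate 3. Ranked by the smaller of the changes under the compounds, the first of the named rises was col-73 (F11G11.12), which had 16.7, 26.3 and 34.8 CPM (lowest, median, highest) under the compounds, against 4.72, 3.97 and 4.71 CPM in water (log2 change 2.51, SE 0.30, edgeR adjusted p = 0.00385). The changes of col-73 under nicotinic acid and MNA were 2.37 and 2.65, and those of col-180 (C44C10.1) were 2.28 and 2.27. The collagen col-173 (F41C6.5) reached 1.77, 2.98 and 4.39 CPM under the compounds, against 0.854, 0.634 and 0.626 CPM in water (log2 change 2.06, SE 0.22, edgeR adjusted p = 0.000412). None of these collagens overlapped between the sides, which the rule that named them required. Calls were less firm for col-162, at 2.58 (SE 0.47), and col-161, at 1.87 (SE 0.39), which did not pass without water replicate 1 or without water replicate 3 (edgeR adjusted p up to 0.0564 and 0.0770). That for col-156, at 2.37 (SE 0.48), was lost without any single water library (edgeR adjusted p up to 0.107). The more abundant col-10 (B0222.8) rose by a smaller step, with a mean of 27.7 ± 2.87 CPM in nicotinic acid, 25.6 ± 1.84 CPM in MNA and 15.8 ± 0.574 CPM in water (SD, n = 3 each; log2 change 0.75, SE 0.08, edgeR adjusted p = 0.000334). By contrast the abundant adult collagen col-19, chosen after its values were seen, was at -0.03 (95% interval -0.23 to 0.17). That mean joined opposite signs, 0.185 under nicotinic acid and -0.248 under MNA. The difference between the compounds was 0.433 (95% interval 0.200 to 0.666) and did not pass (edgeR adjusted p = 0.0841).

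Collagens of the annular furrows, the ring-shaped grooves of the cuticle, did not move as 1 group. This list of 6 genes was drawn up after values had been seen. The furrow genes dpy-8 and dpy-9 rose by 1.59 (SE 0.18) and 1.502 (SE 0.19) on the log2 scale (edgeR adjusted p = 0.00139 in each). For the other 4, the log2 changes were -0.13 for dpy-7, -0.08 for dpy-2, 0.01 for dpy-3 and -0.51 for dpy-10, and none passed the threshold. Close relatives within the collagen family, and within other families named below, may share reads, and the sources used here do not state the rule for assigning them.

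Other genes of the epidermis and of moulting gave further rises. Of 61 hedgehog-related genes, which encode secreted proteins and their receptors in the cuticle-forming epidermis, 14 rose and 1 fell (median log2 change 0.28). The 14 became 8 and 9 without MNA replicate 1 or 2, and 9 and 7 without water replicate 1 or 2. The warthog gene wrt-4 (ZK678.5) had 1.67, 3.45 and 4.30 CPM (lowest, median, highest) under the compounds, against 0.854, 0.845 and 1.03 CPM in water (log2 change 1.82, SE 0.30, edgeR adjusted p = 0.00409), without overlap, as the same rule required. The groundhog gene grd-1 rose by 0.99 (SE 0.16), whereas the patched-related gene ptr-25 fell by 2.21 on the log2 scale (SE 0.29). Astacin metalloproteases, which include enzymes that open the old cuticle, had 7 rises and 1 fall among 31 tested, and the rises became 2 without water replicate 1 and 4 without water replicate 2. Among 27 moulting genes 4 rose and 2 fell, with a median log2 change of 0.02. One of the rises was mlt-10, a gene required for moulting, at 0.52 (SE 0.09). The other moulting rises were already counted above, qua-1 and ptr-18 as hedgehog-related genes and nas-36 as an astacin. The 4 rises became 2 without MNA replicate 1 or water replicate 1. The 2 falls became 0 without MNA replicate 1 or 2, nicotinic acid replicate 3 or any 1 water library, 4 without nicotinic acid replicate 2 and 1 without MNA replicate 3. Among the falls was the fibrillin-like gene fbn-1 at -1.19 (SE 0.24), a call that 7 of the 9 omissions of 1 library ended (all but nicotinic acid replicates 1 and 2; edgeR adjusted p up to 0.128).

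**Figure D3:**
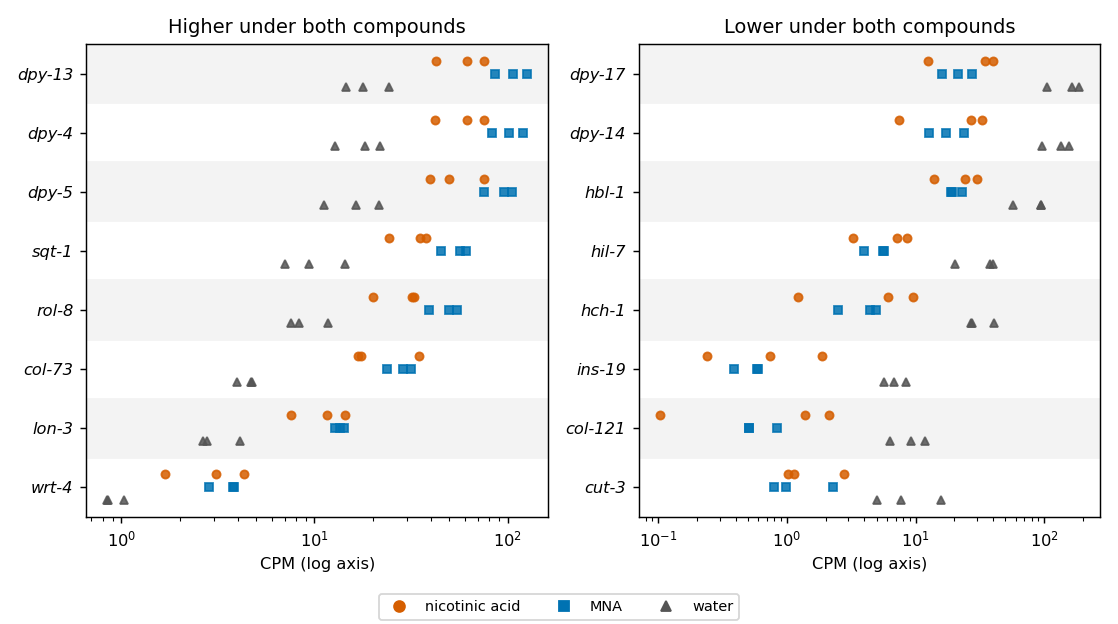
CPM (horizontal, log axis) of 8 genes higher (left panel) and 8 genes lower (right panel) under both compounds, 1 point per library, with nicotinic acid above MNA above water within each gene. In each of the 16 genes the 6 compound libraries are separated from the 3 water libraries, for example 42.4 to 126 CPM against 14.5 to 24.2 CPM for dpy-13. Such separation was a condition of the rule that named the largest rises and falls.

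Several of the largest falls were in genes of the cuticle and of the embryo. The collagen dpy-17 (F54D8.1) fell to 12.4, 24.4 and 40.1 CPM (lowest, median, highest) under the compounds, against 188, 106 and 164 CPM in water (log2 change -2.62, SE 0.37, edgeR adjusted p = 0.00998), and leaving out water replicate 1 put it at the threshold (edgeR adjusted p = 0.0501). The collagen dpy-14 (H27M09.4), which is made in the embryo, had 7.48, 20.5 and 32.9 CPM under the compounds, against 156, 95.9 and 136 CPM in water (log2 change -2.70, SE 0.42, edgeR adjusted p = 0.0135). Its call was lost without water replicate 1 or 3 (edgeR adjusted p up to 0.0624). The lowest value of both genes was in nicotinic acid replicate 1, and even the highest compound value was below every water library.

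The hatching protease gene hch-1 (F40E10.1), which the embryo uses to leave its eggshell, had 1.23, 4.66 and 9.57 CPM (lowest, median, highest) under the compounds, against 40.7, 27.2 and 27.2 CPM in water. Its log2 change was -2.77 (SE 0.48, edgeR adjusted p = 0.0188), and it did not pass without MNA replicate 1, MNA replicate 2, water replicate 1 or water replicate 3 (edgeR adjusted p up to 0.0802). The cuticlin cut-3 (F22B5.3), of the embryonic and first larval cuticle, had 0.800, 1.07 and 2.78 CPM under the compounds, against 15.7, 4.98 and 7.73 CPM in water (log2 change -2.72, SE 0.48, edgeR adjusted p = 0.0167, and 0.0507 without water replicate 3). Neither gene overlapped between the sides, and water replicate 1 was the highest library in both. The intermediate filament gene ifa-3 (F52E10.5), needed in the embryonic epidermis, was lower by a log2 change of -2.80 (SE 0.35, edgeR adjusted p = 0.00342), with -2.55 under nicotinic acid and -3.04 under MNA.

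Developmental regulators and signalling genes were also among the largest falls. The zinc finger gene hbl-1 (F13D11.2), a homologue of hunchback that sets the timing of early larval cell fates, had 14, 21.1 and 30.2 CPM (lowest, median, highest) under the compounds, against 94.9, 57.1 and 94.5 CPM in water. Its log2 change was -1.94 (SE 0.26, edgeR adjusted p = 0.00758), with -1.86 under nicotinic acid and -2.02 under MNA. The insulin-like peptide gene ins-19 (T10D4.13) fell to 0.239, 0.586 and 1.87 CPM under the compounds, against 8.499, 5.70 and 6.85 CPM in water (log2 change -3.39, SE 0.37, edgeR adjusted p = 0.00135). The collagen col-121 (F56D5.1) had the steepest of the named falls, at -3.44 (SE 0.50), with means of 1.21 ± 1.03 CPM in nicotinic acid, 0.619 ± 0.192 CPM in MNA and 9.14 ± 2.75 CPM in water (SD, n = 3 each). The Notch ligand-like gene dsl-6 (H02I12.4) was at -3.34 (SE 0.47) and its relative dsl-3 at -1.62 (SE 0.24). All 5 genes kept the compound libraries below the water libraries and passed whichever of the 9 libraries was omitted.

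Cuticlins, the insoluble cuticle proteins, moved against the collagens. Of 28 tested, 12 fell and 16 did not pass, with a median log2 change of -0.48. The cuticlin-like gene cutl-16 (K06A1.3) had 1.91, 2.22 and 2.80 CPM (lowest, median, highest) under the compounds, against 9.71, 6.67 and 10.3 CPM in water (log2 change -1.94, SE 0.16, edgeR adjusted p = 0.000103). Its compound values lay close together, with means of 2.50 ± 0.507 CPM in nicotinic acid and 2.16 ± 0.114 CPM in MNA, against 8.89 ± 1.94 CPM in water (SD, n = 3 each). The related cutl-13 (W04C9.3) fell by 3.27 on the log2 scale (SE 0.37) and cutl-9 by 1.61 (SE 0.25).

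Several groups of adhesion and regulatory genes, listed after values had been seen, also held many falls. Among 24 adhesion genes with immunoglobulin domains 11 fell and 13 did not pass, and 6 fell without water replicate 1 or water replicate 3. The member igcm-3 (T02C5.3) had 35.6, 51.0 and 55.5 CPM (lowest, median, highest) under the compounds, against 113, 92.8 and 103 CPM in water (log2 change -1.08, SE 0.14, edgeR adjusted p = 0.00515). Of 19 basement membrane genes, which build and bind the sheet beneath epithelia, 8 fell and 11 did not pass, with 5 falls without water replicate 1. Nidogen (nid-1) was lower by a log2 change of -0.46 (SE 0.06), dystroglycan (dgn-1) by -0.57 (SE 0.07) and the integrin subunit ina-1 by -0.39 (SE 0.06). The laminin subunit lam-3, outside the naming rule, was at -1.69 (SE 0.26), and without water replicate 1 it did not pass (edgeR adjusted p = 0.0591). Cadherins, the calcium-dependent adhesion proteins, split: 6 of 11 fell and 3 rose. The falls became 2 and 1 without water replicate 1 or 3. Examples are cdh-3 at -0.51 (SE 0.09), against cdh-10 at 1.12 (SE 0.12) and cdh-7 at 1.13 (SE 0.14). At the epithelial junctions 4 of 15 genes fell, among them dlg-1 (C25F6.2), a scaffold of the apical junction, at -0.85 (SE 0.13), with -0.85 under nicotinic acid and -0.85 under MNA. The 4 became 1, 2 and 2 without water replicate 1, 2 or 3.

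Transcription factors and chromatin proteins followed. Of 48 homeobox genes with ceh names 12 fell and 1 rose, and the falls became 5 without water replicate 1 and 7 without water replicate 3. The Distal-less homologue ceh-43 (C28A5.4) had 7.17, 9.80 and 10.8 CPM (lowest, median, highest) under the compounds, against 16, 14.7 and 15.4 CPM in water (log2 change -0.75, SE 0.12, edgeR adjusted p = 0.00337), without overlap. The homeobox genes ceh-34 and ceh-27 were lower by log2 changes of -1.23 (SE 0.22) and -0.96 (SE 0.17). Linker histones, which bind DNA between nucleosomes, had 4 falls in 8 tested. The most marked was hil-7 (C01B10.5), which had 3.24, 5.603 and 8.56 CPM under the compounds, against 38, 20.4 and 39.7 CPM in water (log2 change -2.55, SE 0.32, edgeR adjusted p = 0.00515). Leaving out MNA replicate 1 or 2, or water replicate 1 or 3, reduced the 4 linker histones to 2. F-box proteins, substrate adaptors for protein breakdown, fell in 19 of 265 genes (7.17%, against 4.89% of all genes), and in 8 without water replicate 1.

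**Figure D4:**
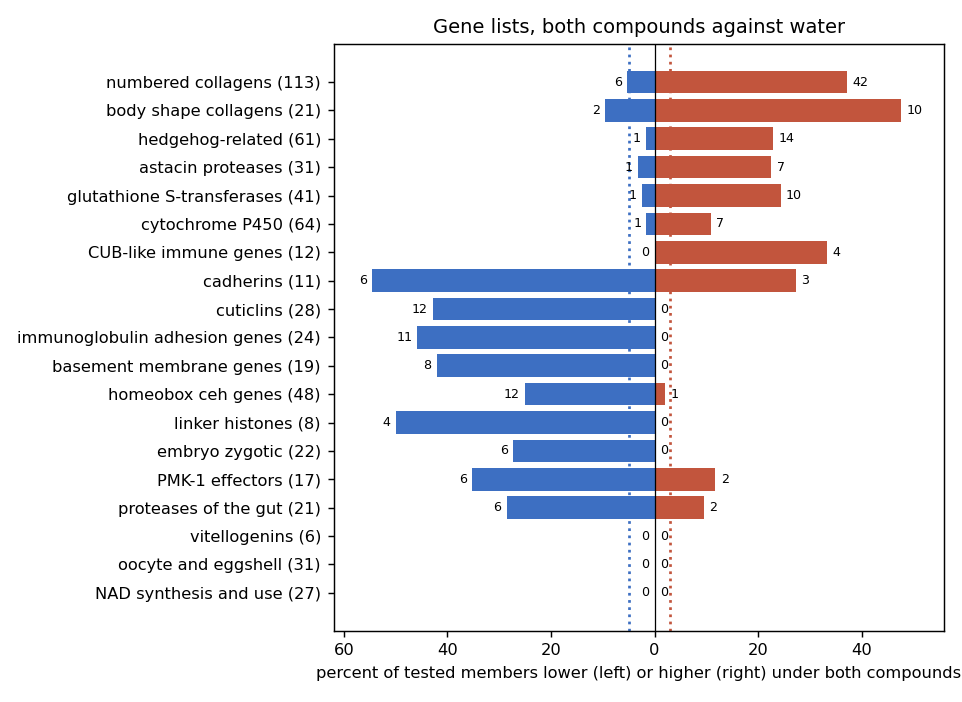
Percent of the tested members of 19 gene lists called lower (left) or higher (right) in the pooled comparison of both compounds with water. Each bar carries the number of genes, and the number tested is in brackets. A called gene need not have moved under each compound, and 7 of the called cytochrome P450 genes were unequal between the compounds. Dotted lines mark all genes tested (4.89% lower, 3.02% higher). Collagen lists extend mainly to the right (42 of 113 numbered collagens), cuticlin and adhesion lists to the left (12 of 28 cuticlins), and the vitellogenin, oocyte and NAD lists hold no called gene. The cadherin, immunoglobulin adhesion, basement membrane, homeobox and linker histone lists were drawn up after values had been seen. Their distance from the dotted lines was therefore raised by the choice, and not all lists are shown.

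In the 9 embryo markers the summed level was 16.5 to 27.5 CPM in nicotinic acid and 20.4 to 24.5 CPM in MNA, against 45.3 to 72.4 CPM in water, and none was at 0 in all libraries. Of 8 tested, 2 fell, and these are the genes hch-1 and cut-3 already described, which act late in the embryo. The other 6 summed to 12.78 to 15.2 CPM in nicotinic acid and 14.6 to 17.9 CPM in MNA, against 11.1 to 16 CPM in water, so these sums overlapped, and the median log2 change of the 8 was 0.00. The early embryonic genes did not pass, with log2 changes of -0.24 for end-1 and 0.24 for end-3, which start the gut lineage, -0.28 for elt-7, 0.40 for tbx-37, 0.60 for tbx-38 and 0.55 for pes-10. In the wider list of 22 zygotic embryo genes 6 fell and 16 did not pass, and 2 fell without water replicate 1 or 3. Of these falls all but tbx-8 were also counted in other lists. They are dpy-14 (body shape collagens), cut-3 (cuticlins), hch-1 (astacins), ceh-36 (homeobox genes) and nhr-25 (moulting genes). The T-box gene tbx-8, which acts in embryonic morphogenesis, fell by 1.16 on the log2 scale (SE 0.22). Whether the embryo content of the worms took part in the falls was not tested, and in whole animals fewer cells of a type and less RNA per cell cannot be told apart.

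Summed marker levels of the germline, intestine, epidermis, neurons and muscle overlapped between the sides, but not in each compound taken alone. The germline sums in nicotinic acid lay just below those in water, and the neuron sums in MNA just above. The summed germline and oocyte markers stood at 13550 to 14770 CPM in nicotinic acid and 14310 to 15950 CPM in MNA, against 14780 to 16780 CPM in water, and none of the 9 was called by edgeR, DESeq2 or limma-voom (2 at an unadjusted p below 0.05). Intestine markers came to 3818 to 4539 CPM and 3985 to 4222 CPM under nicotinic acid and MNA, against 4056 to 4224 CPM in water, with 1 rise (pept-1, a peptide transporter, at 0.20) and 1 fall (elt-2, a gut GATA factor, at -0.27) among 8 tested. The call of elt-2 was lost in 8 of the 9 omissions of 1 library, all but that of nicotinic acid replicate 2 (edgeR adjusted p up to 0.137). Epidermis markers came to 417 to 510 CPM and 383 to 413 CPM, against 377 to 442 CPM, and 2 of 7 tested rose, the collagens col-10 and rol-6, with rol-6 not passing without water replicate 1 (edgeR adjusted p = 0.0532). Neuron markers were at 371.7 to 431.0 CPM and 392.4 to 417.0 CPM, against 339.8 to 391.8 CPM. None of 10 passed in edgeR, though 9 were above 0 and 6 at an unadjusted p below 0.05, and DESeq2 called 1 and limma-voom none. Summed muscle markers were at 1872 to 2528 CPM and 1892 to 2156 CPM, against 1807 to 2011 CPM, with hlh-1 at 0. None of the 5 tested was called by edgeR, DESeq2 or limma-voom, and none was at an unadjusted p below 0.05. All 5 were above 0, with a median log2 change of 0.33. None of 31 oocyte and eggshell genes and none of 6 vitellogenins, the yolk proteins, passed the edgeR test, with 4 and 2 of them at an unadjusted p below 0.05. DESeq2 called 1 gene of each list and limma-voom none.

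Some defence genes fell under both compounds, and others rose mainly under MNA. Of 17 effectors of the PMK-1 immune pathway 6 fell and 2 rose, and the rises became 4 without MNA replicate 3 and 0 without water replicate 1. Among these called effectors 5 differed between the compounds, falls as well as rises. The median log2 change of the 17 was -0.46 under nicotinic acid and -0.10 under MNA. The lysozyme gene lys-7 (C02A12.4), an antibacterial effector, had 234, 268 and 339 CPM (lowest, median, highest) under the compounds, against 380, 373 and 384 CPM in water (log2 change -0.48, SE 0.07, edgeR adjusted p = 0.00268). The cation ATPase gene catp-3 (C09H5.2) had a mean of 25.05 ± 1.90 CPM in nicotinic acid and 40 ± 5.46 CPM in MNA, against 51.7 ± 3.03 CPM in water (SD, n = 3 each). It was 1 of the 5 falls that were unequal, with a difference of -0.67 (SE 0.10) between nicotinic acid and MNA (edgeR adjusted p = 0.00392). The infection response gene irg-4 (F08G5.6) rose by 1.25 (SE 0.20), with 0.46 under nicotinic acid and 2.04 under MNA, and without water replicate 1 it did not pass (edgeR adjusted p = 0.0575). Gut proteases fell in 6 of 21 genes and rose in 2. The aspartyl protease asp-5 (F21F8.3) had 522, 568 and 607 CPM under the compounds, against 710, 706 and 682 CPM in water, a log2 change of -0.32 (SE 0.05, edgeR adjusted p = 0.00353). The 6 became 3 without water replicate 1, and the 2 became 1 or 0 in each omission of 1 library except that of nicotinic acid replicate 3.

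Detoxification genes entered the rises mainly through MNA. Glutathione S-transferases, which attach glutathione to reactive molecules, rose in 10 of 41 genes, and 7 of the 11 called members differed between the compounds. The rises became 6 without water replicate 1. The gene gst-35 (Y1H11.2) stood at 1.502, 0.856 and 0.966 CPM in the nicotinic acid libraries, at 95, 77.4 and 41.1 CPM in the MNA libraries, and at 0.720, 0.549 and 1.07 CPM in the water libraries. Its pooled log2 change was 3.50 (SE 0.54, edgeR adjusted p = 0.0108), made of 0.52 (SE 0.71) under nicotinic acid and 6.48 (SE 0.46) under MNA. The nicotinic acid values of gst-35 overlapped those of water, and MNA replicate 3 was the lowest of its group. The call of gst-35 against water was lost without nicotinic acid replicate 1 or water replicate 1 (edgeR adjusted p up to 0.0696), and that of gst-21 without water replicate 1 (edgeR adjusted p = 0.0557).

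Members of other enzyme families also differed between the compounds. The flavin monooxygenase fmo-5 (H24K24.5) had means of 11.1 ± 0.809 CPM in nicotinic acid and 234 ± 89.4 CPM in MNA, against 8.90 ± 0.554 CPM in water (SD, n = 3 each). For ugt-37 (F10D2.6), a UDP-glucuronosyltransferase, the pooled log2 change of 2.98 (SE 0.45) was made of 0.30 under nicotinic acid and 5.65 under MNA. It was chosen for its difference between the compounds. In limma-voom the pooled calls of gst-35, gst-21 and ugt-37 did not pass (limma-voom adjusted p = 0.173, 0.144 and 0.179). That of fmo-5 did (limma-voom adjusted p = 0.0348). With the 6 compound libraries as 1 group none of these genes passed (edgeR adjusted p = 0.26 to 0.275). Of 60 tested UDP-glucuronosyltransferases 7 rose and 3 fell, and 4 of these 10 were unequal. The member ugt-41 was not among the unequal ones, at 0.33 under nicotinic acid and 0.61 under MNA (edgeR adjusted p of the difference 0.211). The 3 falls became 1 without MNA replicate 2, nicotinic acid replicate 3 or water replicate 1, and 0 without water replicate 3. Cytochrome P450 genes rose in 7 of 64, and 7 of the 8 called members were unequal. The rises became 4 when nicotinic acid replicate 1 or 2 or water replicate 1 was omitted, and 3 without water replicate 2 or 3. A few glutathione S-transferases changed under both: gst-12 and gst-10, chosen after their values were seen, had 0.93 and 0.52 under nicotinic acid and 1.61 and 1.02 under MNA on the log2 scale.

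Fewer rises were larger under nicotinic acid. The transporter gene snf-5 (Y46G5A.30) stood at 3.35, 1.77 and 1.77 CPM in the nicotinic acid libraries, at 1.096, 0.727 and 0.946 CPM in the MNA libraries, and at 0.450, 0.422 and 0.331 CPM in the water libraries. All 3 groups were separate, and nicotinic acid exceeded MNA by a log2 difference of 1.33 (SE 0.29, edgeR adjusted p = 0.0405), a difference that did not pass without any 1 MNA library or without nicotinic acid replicate 1 (edgeR adjusted p up to 0.246). The collagen col-88 (W05G11.3) had 5.47 ± 2.79 CPM in nicotinic acid and 1.32 ± 0.300 CPM in MNA, against 0.754 ± 0.341 CPM in water (SD, n = 3 each). The difference between the compounds in col-88 was lost without MNA replicate 1 or 2, nicotinic acid replicate 3 or water replicate 3 (edgeR adjusted p up to 0.192), and its pooled call without MNA replicate 2 or 3 or water replicate 1 or 3 (edgeR adjusted p up to 0.108).

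**Figure D5:**
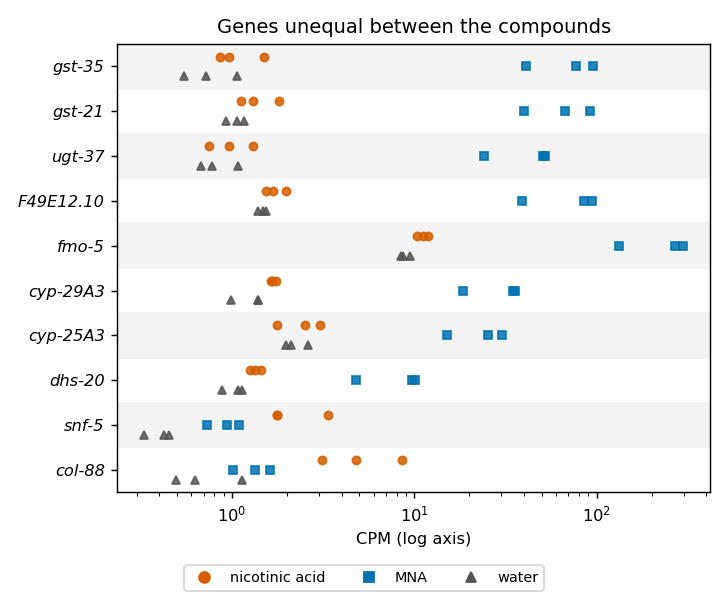
CPM (horizontal, log axis) of 10 genes whose level differed between the compounds, 1 point per library, with nicotinic acid above MNA above water within each gene. For gst-35 the MNA libraries lie at 41.1 to 95 CPM while nicotinic acid (0.856 to 1.502 CPM) and water (0.549 to 1.07 CPM) overlap; for snf-5 and col-88 the nicotinic acid libraries are highest.

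Genes that handle the compounds themselves were not called. None of 27 genes of NAD synthesis and use passed the edgeR test, 1 of them at an unadjusted p below 0.05, and none was called by DESeq2 or limma-voom. The methyltransferase gene anmt-1 was at -0.09 (95% interval -0.43 to 0.26), gad-3 at -0.20 (-0.46 to 0.06), the NAD-dependent deacetylase gene sir-2.1 at 0.00 (-0.07 to 0.08) and the nicotinamidase gene pnc-1 at 0.00 (-0.14 to 0.15) on the log2 scale. The mean for pnc-1 joined opposite signs, 0.134 under nicotinic acid and -0.124 under MNA. Its difference between the compounds was 0.258 (95% interval 0.095 to 0.421) and did not pass (edgeR adjusted p = 0.134). For nprt-1 and qns-1, which act on the route from nicotinic acid to NAD, the log2 changes were -0.07 (-0.16 to 0.01) and -0.01 (-0.09 to 0.08). In the methionine cycle, which supplies methyl groups, none of 18 genes passed, 5 of them at an unadjusted p below 0.05 (none by DESeq2 or limma-voom), and sams-1, the S-adenosylmethionine synthetase, was at 0.09 (-0.01 to 0.19). Stress regulators were also not called, with daf-16 at -0.05 (-0.15 to 0.04) and skn-1 at -0.01 (-0.10 to 0.08), while pmk-1 was at -0.19 (-0.36 to -0.03, edgeR adjusted p = 0.168).

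Calls were spread unevenly over the chromosomes, as assigned by the RefSeq gene table. On the X chromosome 169 of 2044 tested genes fell (8.27%), against 3.72% to 4.82% on the other chromosomes. Without MNA replicate 2, water replicate 1 or water replicate 3 the share on the X was 5.44%, 3.33% and 4.6%, against at most 3.34%, 2.43% and 2.97% on the others. The rises made up 2.11% to 3.85% of the tested genes of a chromosome, and 3.62% on the X. Genes named above that lie on the X include hbl-1, hch-1, ifa-3, dlg-1 and igcm-3 among the falls and wrt-4, col-173 and col-180 among the rises. The asparagine synthetase gene asns-2 (M02D8.4), also on the X and chosen after its values were seen, had 16.8, 22.1 and 35.3 CPM (lowest, median, highest) under the compounds, against 139, 72.3 and 90.9 CPM in water (log2 change -2.12, SE 0.26, edgeR adjusted p = 0.00557).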

How the data were processed

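The deposited values used here are whole-number counts per gene and library, with no normalization by the authors visible in the table. TopHat 1.4.1, HTSeq and CASAVA are the tools named, per the submitters' processing notes, and no source used here gives the genome build, annotation, strand setting or filters. Libraries were made from 2 µg of total RNA. Of 45461 entries 44080 matched the RefSeq gene table that supplied symbols (99.3% of counts). Genes passing filterByExpr (minimum count 10) were fitted in 1 edgeR 4.0.16 quasi-likelihood model of all 9 libraries (R 4.3.3, robust, TMM factors 0.963 to 1.028, term for group, none for replicate), two-sided, with Benjamini-Hochberg adjustment over 13985 genes and a threshold of 0.05. CPM use TMM-scaled totals. The code was tested on simulated data. Each SE was calculated back from the log2 change and the quasi-likelihood F statistic, and the 95% intervals were built from that SE. Floors of 3 counts and 95% intervals cover counting or model error only.

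The comparison, gene lists and naming rule were chosen with earlier results of these data known. Named genes were, among genes called with a mean of at least 1 CPM, no overlap between the sides and 1 sign, the 15 highest and 15 lowest by the smaller single-compound change; the 3 called members of smallest p per list; a fixed set of NAD, methionine and stress genes; and the most unequal genes between the compounds. Alternatives were other scaling factors, no filter, DESeq2 1.42.0, limma-voom 3.58.1, a replicate block, 1 group of 6 compound libraries, and each library left out.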

Additional observations from a re-analysis of the deposited data

Results flagged for a closer look

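For 27 of the named genes called against water, the difference between the compounds itself passed the threshold (edgeR adjusted p below 0.05). Some of them had been named because they were the most unequal, so this count was raised by the choice. Among all 1107 genes called against water 83 were unequal, and among all tested genes 1.42%. Differences are nicotinic acid minus MNA on the log2 scale, so a negative value is a lower level under nicotinic acid, and the doses of the compounds differed. The difference passed in 21 of the 27 whichever library was omitted.

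Detoxification genes were lower under nicotinic acid by widely different amounts. The glutathione S-transferases gst-35 and gst-21 were at -5.96 and -5.60, and gst-5, gst-6 and gst-4 at -0.98, -0.95 and -0.70. The UDP-glucuronosyltransferases ugt-37, ugt-21 and ugt-8 were at -5.35, -2.18 and -1.25. The monooxygenase fmo-5 was at -4.39, and the cytochrome P450 genes cyp-29A3, cyp-25A3 and cyp-13A10 were at -4.13, -3.27 and -3.15. The short-chain dehydrogenases dhs-20 and dhs-2 were at -2.61 and -2.23. F49E12.10, given no function here, was at -5.42.

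Immune and other genes were also lower under nicotinic acid. The CUB-like genes F55G11.2, irg-4 and dod-17 were at -2.26, -1.58 and -1.25, the lectin clec-72 at -0.87, the cadmium-response gene cdr-6 at -1.35 and the fat oxidation gene cpt-5 at -1.09. The falls catp-3 and asp-12 were at -0.67 and -0.50, which means that they fell further under nicotinic acid. The rises with a higher level under nicotinic acid were cyc-2.2, a cytochrome c, at 2.65, W02B12.12 at 2.19, col-88 at 2.05 and snf-5 at 1.33. None of these 4 differences passed in every omission of 1 library. That of cyc-2.2 was lost without MNA replicate 1 or 2 or nicotinic acid replicate 1 (edgeR adjusted p up to 0.0956), and that of W02B12.12 in 6 omissions (all but nicotinic acid replicate 2 and water replicates 1 and 3; edgeR adjusted p up to 0.246). Those of snf-5 and col-88 each were lost in 4 (edgeR adjusted p up to 0.246 and 0.192). The calls of cyc-2.2 and W02B12.12 against water were lost in 6 and 5 omissions, those of any 1 MNA or water library except MNA replicate 1 for W02B12.12 (edgeR adjusted p up to 0.132 and 0.113). Also lost were the difference of irg-4 without nicotinic acid replicate 1 or 3 (edgeR adjusted p up to 0.0620) and that of asp-12 in 7 omissions, all but nicotinic acid replicate 3 and water replicate 1 (edgeR adjusted p up to 0.231).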

How the results depend on the processing

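None of the 167 named genes called against water changed direction under the alternatives run. RLE and upper-quartile factors, no filter on low counts, DESeq2, limma-voom and the replicate block left the counts of rises and falls against water within 1.5 times of 423 and 684 (305 to 553 rises, 593 to 793 falls), and no scaling moved the median of all genes by 0.1. With the 6 compound libraries as 1 group, 183 genes rose and 573 fell, with 174 of the rises above all water libraries; that fit gives no comparison between the compounds. Between the compounds, nicotinic acid was higher in 150 genes and lower in 281 with no filter on low counts, and higher in 135 and lower in 259 with DESeq2; the cause was not tested. Leaving out 1 library at a time gave 179 to 447 rises and 326 to 729 falls, 161 to 369 and 324 to 716 of them without overlap, and 1 to 160 genes higher and 75 to 258 lower in nicotinic acid than in MNA. Of these 167 genes, 62 lost the call without water replicate 1, 49 without water replicate 3, 47 with the compounds as 1 group, and at most 29 under any other alternative.

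Same-numbered libraries of different groups had deviations correlated at -0.201 to 0.159, so the numbers were not taken to pair the samples. A replicate block gave 468 rises and 675 falls, and 92 genes higher and 193 lower in nicotinic acid than in MNA. With 3 libraries per group and doses that differ between the compounds, small or lowly expressed differences may not have been detectable.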

Other observations

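Sperm markers and major sperm proteins had a higher summed level under the compounds, while sperm development genes changed little as a whole. The summed level of 8 sperm markers was 4.76 to 13.4 CPM in nicotinic acid and 1.74 to 2.63 CPM in MNA, against 0.957 to 1.56 CPM in water, and msp-10 was at 0 in all libraries. The male markers summed to 0.837 to 1.82 CPM and 0.800 to 1.39 CPM under nicotinic acid and MNA, against 0.810 to 1.14 CPM in water, with cwp-1 and cwp-2 at 0. Of 21 tested genes of small sperm families 2 rose and 1 fell (ssp-37, at -0.54), and of 26 sperm development genes 4 rose, with medians of 0.32 and 0.08. The sperm development genes summed to 389 to 414 CPM in nicotinic acid and 379 to 386 CPM in MNA, against 387 to 407 CPM in water. The small sperm families summed to 35.9 to 58.7, 28.9 to 35.8 and 30.5 to 34.9 CPM in nicotinic acid, MNA and water. For 35 major sperm proteins the sums were 1.51 to 6.45, 0.911 to 1.22 and 0.180 to 0.507 CPM. Their sums in water were near the floor of 3 counts, and 0 of the 35 were tested. Leaving out 1 library gave 0 to 4 rises in the small families and 1 or 2 in sperm development without any 1 MNA or water library. The sperm family genes ssq-2 and sss-2 rose by 2.15 (SE 0.50) and 2.55 (SE 0.66) on the log2 scale against water, with no overlap between the sides, and were at 3.07 and 3.30 under nicotinic acid and 1.23 and 1.79 under MNA. The difference between the compounds did not pass for either (edgeR adjusted p = 0.0856 and 0.217). The call of sss-2 was lost without any 1 library of MNA or water, and that of ssq-2 without MNA replicate 1 or 3 or any 1 water library (edgeR adjusted p up to 0.142 and 0.126). The gene spe-18 of sperm development, at 1.72 (SE 0.32), passed in each omission.

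Cytosolic ribosomal protein genes were nearly uniform in sign without single calls. The log2 change was above 0 in 75 of 76, with a median of 0.10, against 7043 of 13985 genes above 0 over all. None passed in edgeR or limma-voom, 19 were at an unadjusted p below 0.05, and DESeq2 called 2.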
